A study of Capra hircus with 72 samples.

Results

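RNA of the nucleus tractus solitarii (NTS) was compared with RNA of the ventral respiratory column (VRC) in goats that breathed room air. The comparison rests on 6 NTS and 6 VRC libraries, which were taken by their labels alone and make up 12 of the 72 libraries of the series. The goats (Capra hircus) of this comparison were female and were kept for 14 days without added CO2, and no age, drug or genetic change is given for them. The series also holds the medial prefrontal cortex (mPFC) and the retrotrapezoid nucleus (RTN), and goats kept at 6% CO2 for 14 days (mild hypercapnia) or at 6% for 7 days and then 8% for 7 days (moderate hypercapnia), with 6 libraries in each of the 12 groups. The design gives 6 animals per condition, so NTS and VRC libraries may come from the same goats, but the labels do not say that a replicate number marks an animal. The p-values therefore measure the spread between libraries, part of which may be technical.

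The NTS lies in the dorsal medulla and is the first relay of vagal and glossopharyngeal afferents from the lungs, heart, vessels and gut. It holds excitatory relay neurons that arise from the dorsal hindbrain, GABA neurons, a catecholamine group and the neurons that make glucagon-like peptide 1, and it borders the area postrema, the fourth ventricle and the dorsal motor nucleus of the vagus. The VRC is a column in the ventrolateral medulla that contains the preBötzinger complex, which generates the inspiratory rhythm, along with bulbospinal respiratory neurons and many glycine neurons. Both regions were measured as bulk tissue, in which fewer cells of a type and less RNA per cell cannot be told apart.

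The 12 libraries held 14.65 to 28.12 M counts, within the series' range of 12.84 to 31.88 M, and their 10 most abundant genes took 7.02% to 10.7% of the counts. Levels are given in CPM, counts scaled to library size with trimmed-mean (TMM) factors, with the standard deviation (SD) over 6 libraries, and fold changes as log2 of NTS over VRC with the standard error (SE). The regions differed in myelin genes. The 12 measured genes of the myelin list summed to 7690 to 36000 CPM in NTS, against 39900 to 53600 CPM in VRC. NTS replicate 1 stood apart with 36000 CPM, where the other 5 NTS libraries ran from 7690 to 17600 CPM. Pan-neuronal genes summed to 6640 to 10100 CPM in NTS, against 6850 to 10600 CPM in VRC, and the ranges overlapped.

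Of 15148 genes tested, 4200 (27.7%) were called with edgeR's quasi-likelihood test at an adjusted p under 0.05. Of these, 2134 were higher in NTS (14.1% of genes tested) and 2066 were lower (13.6%). These shares are the background for each count of list members below. A tested gene passed a filter on low counts, which either region alone can satisfy. With the replicate number as a block 2776 genes were called higher and 3088 lower. With scaling by library totals alone the split was 3279 higher and 1197 lower. That scaling moved the median log2 fold change of all genes tested by 0.143. At least 2-fold changes were called for 839 genes higher in NTS (5.54%) and 470 genes lower (3.1%). In 1447 genes (9.55%) the 6 NTS libraries did not overlap the 6 VRC libraries, with NTS above VRC in 631 and below it in 816. Without NTS replicate 1 the calls came to 2934 higher and 3107 lower of 15257 genes tested, the background for list counts without that library. That library was the lowest of the 6 NTS libraries in 605 of the 839 genes that were at least 2-fold higher in NTS, and the highest of the 6 in 380 of the 470 that were at least 2-fold lower. With the myelin score of each library as a covariate, which does not overlap between the regions, 100 genes were called. Of the 4200, 52 were among them in the same direction and 2 in the opposite direction.

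**Figure D1:**
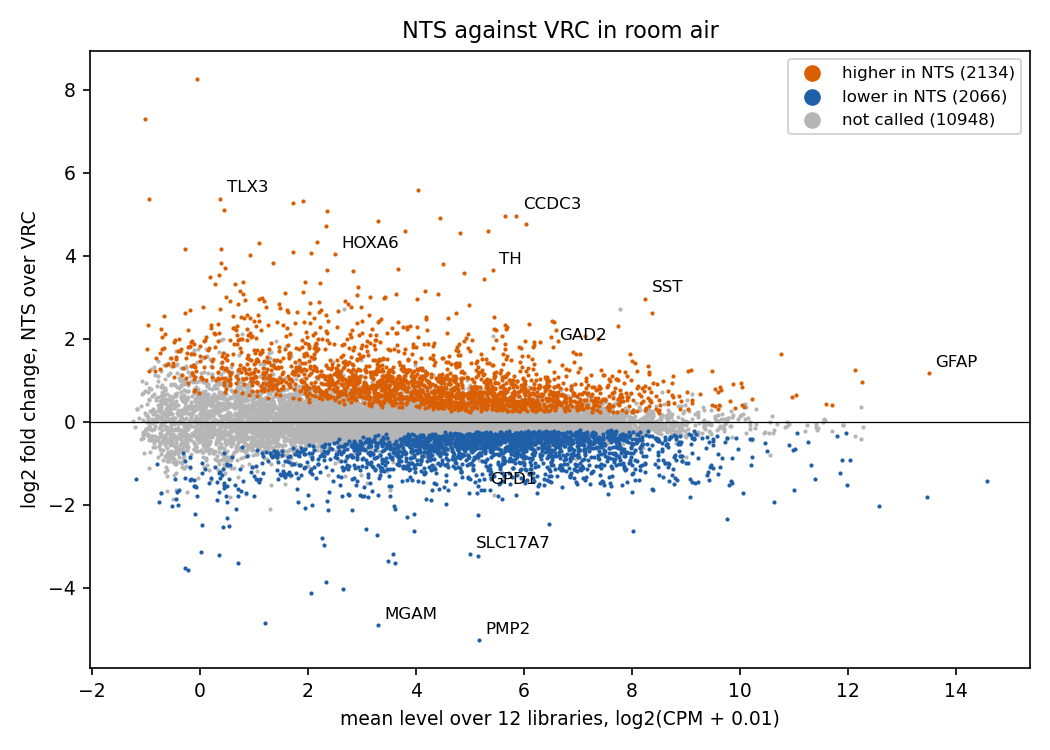
Log2 fold change of NTS over VRC in room air (vertical axis) against the mean level over the 12 libraries as log2(CPM + 0.01) (horizontal axis), 1 point per gene tested (15148); orange points were called higher in NTS (2134), blue points lower (2066) and grey points were not called. The labelled genes show that transcription factors and peptides such as TLX3 and SST lay far above the axis and PMP2, MGAM and SLC17A7 far below it.

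HOX genes, where called, were higher in NTS. They encode the homeobox factors whose nested domains give the hindbrain and cord their rostrocaudal identity. Of the 25 measured, 18 passed the filter on low counts, which either region alone can satisfy. Among those 18, 11 rose in NTS and 0 fell, where 14.1% of all genes tested rose and 13.6% fell, and the median log2 fold change was 0.78, against −0.02 over all genes tested. HOXA5 (chromosome 4) ran from 42.7 to 112 CPM in NTS with a median of 88.0, against 8.53 to 26.4 CPM in VRC with a median of 17.9. HOXB5 (chromosome 19) ran from 107 to 205 CPM in NTS with a median of 161, against 18.2 to 57.1 CPM in VRC with a median of 49.4. Neither gene's regions overlapped, and the log2 fold changes were 2.33 ± 0.29 for HOXA5 (adjusted p = 0.000173) and 1.94 ± 0.29 for HOXB5 (adjusted p = 0.000472).

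HOXA6 and HOXB6 had the largest fold changes of the HOX genes called. HOXA6 ran from 5.83 to 20.9 CPM in NTS (median 8.74), against 0.216 to 1.2 CPM in VRC (median 0.517), a log2 fold change of 4.03 ± 0.43 (adjusted p = 9.04e-05). HOXB6 ran from 3.98 to 43.6 CPM in NTS (median 9.0), against 0.138 to 3.22 CPM in VRC (median 1.18), with a log2 fold change of 3.26 ± 0.72 (adjusted p = 0.0048). NTS replicate 1 gave the top value of both, 20.9 CPM for HOXA6 and 43.6 CPM for HOXB6, and the top value of HOXA7 at 9.83 CPM, where the other NTS libraries reached at most 3.56 CPM. The call of HOXA7 was lost without that library (adjusted p = 0.0536). Groups 5 to 8 were called in 5 of 7 tested members and groups 1 to 4 in 6 of 11, with changes such as 1.23 ± 0.15 for HOXB2 and 0.47 ± 0.14 for HOXD4. HOXA4 averaged 44.3 ± 8.9 CPM in NTS and 34.4 ± 5.79 CPM in VRC, a difference that missed the threshold (adjusted p = 0.0795). HOXD1, at 2.06 ± 0.6 CPM in NTS and 3.28 ± 1.22 CPM in VRC, was the only tested member with a negative fold change, −0.68 ± 0.29 (adjusted p = 0.0942). In mPFC each called HOX gene averaged at most 0.0712 CPM.

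**Figure D2:**
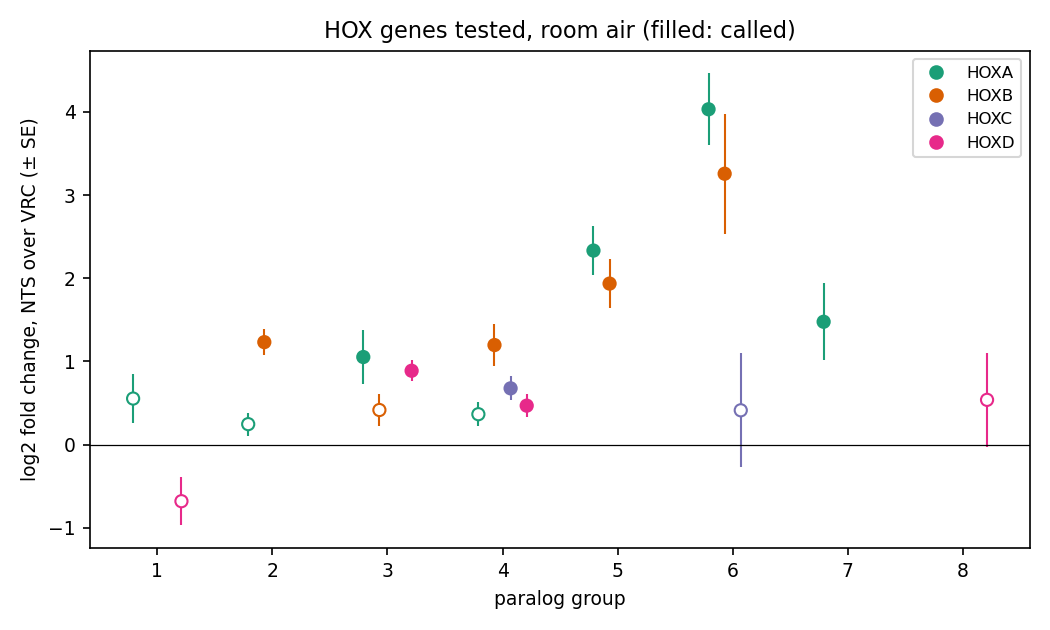
Log2 fold change of NTS over VRC with its SE (vertical axis) for the 18 HOX genes tested, placed by paralog group (horizontal axis) and coloured by cluster; filled points were called, open points were not. The 11 filled points all lie above 0, and HOXA6 and HOXB6 lie highest at 4.03 and 3.26.

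Several transcription factors of dorsal sensory neurons were higher in NTS. TLX3, a selector of excitatory relay neurons in the dorsal hindbrain and cord, ran from 1.13 to 3.99 CPM in NTS (median 2.77), against 0 to 0.168 CPM in VRC (median 0.0273), with a log2 fold change of 5.38 ± 0.60 (adjusted p = 0.000103). PRDM13, a factor of dorsal inhibitory neurons, ran from 0.669 to 3.24 CPM in NTS (median 1.89) and had no count in any VRC library, which makes it at least 68.7-fold higher in NTS with a floor of 3 counts over the VRC group. LBX1, which marks dorsal association neurons, ran from 4.76 to 12 CPM in NTS (median 6.82), against 0.546 to 2.91 CPM in VRC (median 0.757). Of 21 measured genes on this list 10 passed the filter, which NTS alone can satisfy. A gene near 0 in VRC, such as TLX3 or PRDM13, could therefore enter only as higher in NTS. With that limit, 5 of the 10 rose, GSX2 among them, and LHX5 fell, and the median was 1.94. Without NTS replicate 1 the counts were 8 higher and 2 lower of 12 tested. LMX1B, which acts with TLX3, failed the filter, with 0.468 to 5.89 CPM in NTS and 0 to 0.504 CPM in VRC.

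Factors of ventral interneurons were mostly lower in NTS or not called. GATA3, a factor of inhibitory V2b interneurons and of serotonin neurons, ran from 0.0925 to 1.07 CPM in NTS (median 0.206), against 4.97 to 10.7 CPM in VRC (median 7.42). The regions did not overlap in GATA3, and its log2 fold change was −4.13 ± 0.51 (adjusted p = 0.00017). GATA2, NKX2-2, NKX6-2 and FOXP2 were also lower in NTS. Of 23 measured members 12 passed the filter, which VRC alone can satisfy, so a gene near 0 in NTS could enter only as lower. Among those 12, 6 fell and 1, SOX21, rose, with a median of −1.06. NKX2-2 and NKX6-2 are also expressed in the oligodendrocyte lineage, and both were highest among NTS libraries in the myelin-rich replicate 1, at 20.4 CPM and 80.2 CPM. DBX1, the progenitor gene from which preBötzinger neurons derive, had no count in any of the 12 libraries.

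Of 27 other hindbrain patterning genes tested, 14 rose in NTS and 2 fell, with a median of 0.82. PAX3, a dorsal neural tube gene, averaged 2.55 ± 0.951 CPM in NTS and 0.186 ± 0.227 CPM in VRC (log2 fold change 3.70 ± 0.56, adjusted p = 0.000528). ZIC4 and ZIC5, zinc finger factors of the dorsal neural tube, rose by 2.25 ± 0.34 and 2.43 ± 0.44. EBF3 averaged 12.1 ± 8.37 CPM in NTS and 1.78 ± 0.632 CPM in VRC, and POU3F1 averaged 2.99 ± 1.58 CPM in NTS and 0.519 ± 0.179 CPM in VRC. PBX3, a HOX cofactor, was higher by 0.82 ± 0.12 without overlap. The 2 that fell were NR2F2, at 7.26 ± 1.52 CPM in NTS and 13.5 ± 2.32 CPM in VRC, and ONECUT1.

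**Figure D3:**
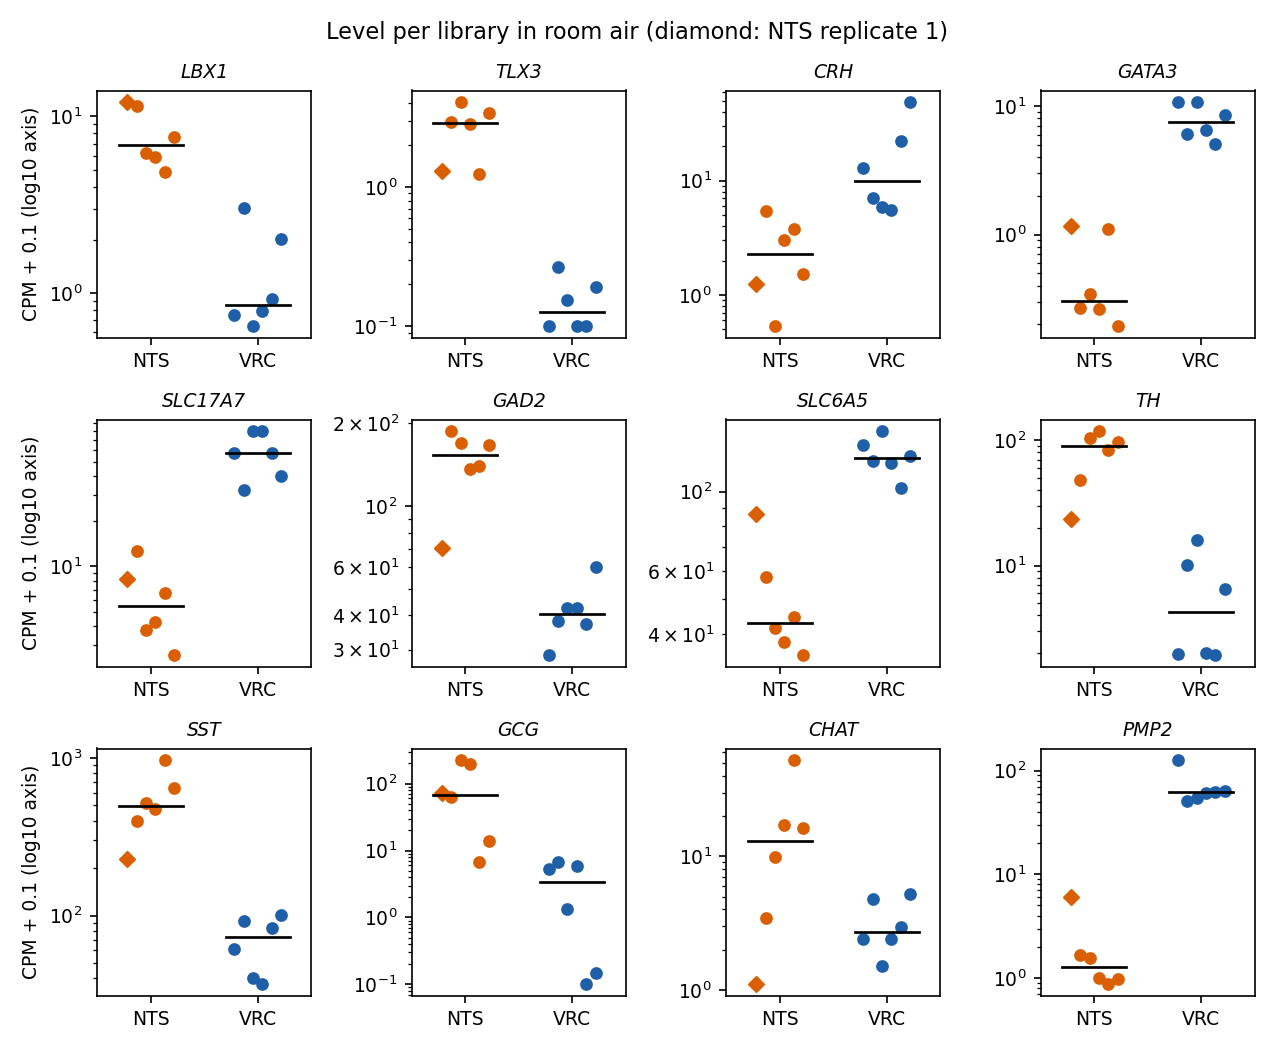
CPM per library on a log10 axis (CPM + 0.1) for 12 genes of neuron identity, transmitters, peptides and glia, with the 6 NTS libraries left (orange) and the 6 VRC libraries right (blue) in each panel; the black bar is the median and NTS replicate 1 is drawn as a diamond. All NTS libraries lie above all VRC libraries in LBX1, TLX3, GAD2, SST and TH and below them in CRH, GATA3, SLC17A7, SLC6A5 and PMP2, and CHAT and GCG overlap.

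Genes of fast transmission changed in both directions. SLC17A7, the vesicular glutamate transporter VGLUT1, ran from 2.45 to 12.5 CPM in NTS (median 5.36), against 32.2 to 80.2 CPM in VRC (median 56.9). SLC17A6, or VGLUT2, the main glutamate transporter of brainstem neurons, averaged 109 ± 26.9 CPM in NTS and 74.6 ± 16.7 CPM in VRC, with overlap. Their log2 fold changes were −3.19 ± 0.37 (adjusted p = 0.00013) and 0.55 ± 0.18 (adjusted p = 0.036). SLC17A8, or VGLUT3, was higher at 1.51 ± 1.06 CPM in NTS and 0.224 ± 0.232 CPM in VRC. In the whole glutamate list 5 of 11 tested genes rose and 2 fell.

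The GABA enzymes were higher and the glycine transporter lower in NTS. GAD2 ran from 70.5 to 188 CPM in NTS (median 154), against 28.5 to 60.1 CPM in VRC (median 40.4), and GAD1 from 111 to 278 CPM in NTS (median 191), against 60.7 to 91.6 CPM in VRC (median 77.1). Both make GABA from glutamate, and neither overlapped between the regions. SLC6A5, the neuronal glycine transporter GlyT2, ran from 34.7 to 86.4 CPM in NTS (median 42.9), against 102 to 148 CPM in VRC (median 124). The log2 fold changes were 1.81 ± 0.22 for GAD2 (adjusted p = 0.000151), 1.28 ± 0.19 for GAD1 (adjusted p = 0.000376) and −1.32 ± 0.20 for SLC6A5 (adjusted p = 0.000471). SLC32A1, the vesicular transporter that loads both GABA and glycine, averaged 10.6 ± 1.72 CPM in NTS and 12.2 ± 2.51 CPM in VRC (log2 fold change −0.21 ± 0.16, adjusted p = 0.363). Of 8 tested genes of both pathways 3 rose and 2 fell.

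Enzymes of catecholamine synthesis did not change together. TH, the rate-limiting enzyme, ran from 23.6 to 119 CPM in NTS (median 90.6), against 1.82 to 15.8 CPM in VRC (median 4.16), a log2 fold change of 3.65 ± 0.57 (adjusted p = 0.000625) without overlap. DDC, the decarboxylase that follows TH, averaged 124 ± 56.1 CPM in NTS and 32.8 ± 9.0 CPM in VRC and was called, with NTS replicate 1 at 32.9 CPM inside the VRC range. DBH, which turns dopamine into noradrenaline, averaged 6.73 ± 3.22 CPM in NTS and 15.2 ± 9.9 CPM in VRC, with a log2 fold change of −1.18 ± 0.43 that missed the threshold (adjusted p = 0.0566). DBH was called lower in NTS in mild hypercapnia, at −1.53 (adjusted p = 0.0013), and was at −1.41 in moderate hypercapnia (adjusted p = 0.0513). SLC6A3, the dopamine transporter, rose to 1.72 ± 0.912 CPM in NTS, against 0.516 ± 0.373 CPM in VRC, while SLC6A2, the noradrenaline transporter, was at 1.24 ± 0.406 CPM in NTS and 0.553 ± 0.398 CPM in VRC (adjusted p = 0.0564). PNMT, which makes adrenaline, averaged 0.222 ± 0.253 CPM in NTS and 0.153 ± 0.288 CPM in VRC and failed the filter. Of 9 tested genes of the pathway 4 rose and 0 fell. Called higher were 8 with scaling by library totals, 6 with RLE factors and 6 with the replicate number as a block.

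Serotonin genes did not change together. TPH2, the enzyme of neuronal serotonin synthesis, averaged 3.09 ± 1.62 CPM in NTS and 10.5 ± 7.56 CPM in VRC (log2 fold change −1.77 ± 0.46, adjusted p = 0.0121), and stood at 80.4 CPM in RTN. SLC6A4, the serotonin transporter, averaged 3.69 ± 2.36 CPM in NTS and 5.57 ± 5.23 CPM in VRC and was not called. SLC22A3, a low-affinity monoamine transporter, was higher at 8.31 ± 3.72 CPM in NTS and 1.87 ± 0.744 CPM in VRC. Of 7 tested genes on the serotonin list, which shares DDC with the catecholamine list and GATA2 and GATA3 with the ventral list, 2 rose and 3 fell. Acetylcholine genes varied among the NTS libraries. CHAT, the acetylcholine enzyme, had 1.0, 3.36, 9.76, 17.1, 52.7 and 16.1 CPM in NTS replicates 1 to 6, against 1.42 to 5.09 CPM in VRC, and was called at 2.42 ± 0.69 with overlap (adjusted p = 0.019). SLC5A7 and RET, the choline transporter and a growth factor receptor of motor neurons, were also higher. Of 10 tested genes of the cholinergic and motor neuron list 5 rose and 0 fell, and their summed level was 107 to 1990 CPM in NTS, against 80.8 to 444 CPM in VRC. Without NTS replicate 1, 9 of 11 were higher and 1 was lower.

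Neuropeptide genes were higher in NTS more often than lower. Of 30 tested, 14 rose in NTS and 5 fell, the median was 0.82, and the 40 measured genes summed to 2410 to 6590 CPM in NTS, against 1640 to 2210 CPM in VRC. SST (somatostatin) ran from 228 to 976 CPM in NTS (median 497), against 36.4 to 101 CPM in VRC (median 72.5), a log2 fold change of 2.97 ± 0.35 (adjusted p = 0.000139). SST is widely used as a marker of preBötzinger neurons, and here its lowest NTS library lay above its highest VRC library. TAC1, the precursor of substance P, ran from 97.6 to 213 CPM in NTS (median 158), against 17.8 to 49.1 CPM in VRC (median 28.1). CCK (cholecystokinin) ran from 40.6 to 98.2 CPM in NTS (median 71.5), against 11.6 to 24.3 CPM in VRC (median 13.7). TAC1 and CCK rose on the log2 scale by 2.40 ± 0.26 (adjusted p = 9.04e-05) and 2.21 ± 0.24 (adjusted p = 9.54e-05), both without overlap.

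GCG, the precursor of glucagon-like peptide 1, was uneven among the NTS libraries. It stood at 73.0, 63.7, 227, 197, 6.58 and 13.6 CPM in NTS replicates 1 to 6, against 0 to 6.67 CPM in VRC, with a log2 fold change of 4.95 ± 1.02 (adjusted p = 0.00296). NTS replicate 5, at 6.58 CPM for GCG, lay just inside the VRC range. GAL (galanin) averaged 126 ± 85 CPM in NTS and 4.65 ± 4.47 CPM in VRC, with NTS replicate 1 at 4.82 CPM inside the VRC range. PDYN (prodynorphin) rose by 3.09 ± 0.36 and NMS (neuromedin S) by 3.33 ± 0.47, both without overlap. The gene for neurotensin, a peptide transmitter, shares its symbol with the nucleus and was higher by 1.37 ± 0.27. ADCYAP1, the precursor of the respiratory stimulant PACAP, averaged 358 ± 205 CPM in NTS and 72.9 ± 29.7 CPM in VRC (adjusted p = 0.00167). SCG2, a granin of dense-core vesicles, averaged 2620 ± 909 CPM in NTS and 845 ± 122 CPM in VRC.

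Peptides that were lower in NTS were fewer. CRH, the corticotropin-releasing hormone, ran from 0.43 to 5.29 CPM in NTS (median 2.19), against 5.44 to 49.0 CPM in VRC (median 9.77). KISS1 averaged 0.244 ± 0.106 CPM in NTS and 2.28 ± 1.15 CPM in VRC, and ADM (adrenomedullin), a vasodilator, 8.89 ± 3.14 CPM in NTS and 23.8 ± 6.98 CPM in VRC. In all 3 the 6 NTS libraries lay below the 6 VRC libraries, and CRH fell by 2.72 ± 0.63 on the log2 scale (adjusted p = 0.00628). NMU and IGF1 were the other 2 that fell. NPY was at 22 ± 8.15 CPM in NTS and 19.6 ± 19.6 CPM in VRC (adjusted p = 0.856), and CARTPT was at 12.3 ± 6.22 CPM in NTS and 26.3 ± 21.4 CPM in VRC (adjusted p = 0.112).

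Among receptors, more were higher than lower in NTS. Of 46 tested peptide and hormone receptors, 22 rose and 3 fell, with a median of 0.81. CALCR, the calcitonin and amylin receptor, averaged 184 ± 88 CPM in NTS and 57.3 ± 20.7 CPM in VRC. SSTR1, a somatostatin receptor, averaged 28.6 ± 12.1 CPM in NTS and 3.69 ± 1.41 CPM in VRC, and ADCYAP1R1, the PACAP receptor, 103 ± 38.3 CPM in NTS and 26.9 ± 8.26 CPM in VRC, so ligand and receptor of both systems were higher in NTS. GLP1R, the receptor for glucagon-like peptide 1, averaged 2.66 ± 0.521 CPM in NTS and 0.535 ± 0.702 CPM in VRC, and GHSR, the ghrelin receptor, 4.05 ± 2.77 CPM in NTS and 0.592 ± 0.355 CPM in VRC. The 3 that fell were MC4R, the melanocortin receptor, by 1.28 ± 0.27 without overlap, OPRD1 and RAMP3. OPRM1, the µ-opioid receptor through which opioids depress breathing, averaged 3.05 ± 0.957 CPM in NTS and 3.18 ± 0.802 CPM in VRC, with a log2 fold change of −0.05 ± 0.25 (adjusted p = 0.9).

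Of 28 tested monoamine and acetylcholine receptors 13 rose and 0 fell, with a median of 0.86. HTR2B, a serotonin receptor, ran from 13.7 to 27.7 CPM in NTS (median 21.9), against 2.9 to 5.69 CPM in VRC (median 4.06), and had 1 of the smallest p-values (log2 fold change 2.40 ± 0.20, adjusted p = 2.58e-05). CHRNA3 and CHRNB4, which combine in ganglionic-type nicotinic receptors, averaged 23.8 ± 13.3 and 22.6 ± 12.1 CPM in NTS, against 1.81 ± 1.56 and 4.62 ± 0.479 CPM in VRC. DRD2, a dopamine receptor, averaged 15 ± 9.43 CPM in NTS and 2.51 ± 1.39 CPM in VRC without overlap. CHRNA3 stood at 1.87 CPM and CHRNB4 at 4.28 CPM in NTS replicate 1, inside the VRC ranges.

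Most GABA-A receptor subunits were higher in NTS, as were the GABA enzymes. Of 13 tested GABA-A subunits 10 rose and 1 fell, with a median of 1.17. GABRG1 ran from 56.9 to 93.1 CPM in NTS (median 73.2), against 25.2 to 38.1 CPM in VRC (median 32.6), a rise of 1.17 ± 0.14 (adjusted p = 0.000143), and GABRA5 rose by 1.71 ± 0.22 (adjusted p = 0.000241). GABRD, the subunit of extrasynaptic receptors, was the exception, at 2.56 ± 1.47 CPM in NTS and 11.5 ± 5.37 CPM in VRC (log2 fold change −2.14 ± 0.39, adjusted p = 0.00145). GLRA2, a glycine receptor subunit, averaged 24.6 ± 8.93 CPM in NTS and 5.0 ± 1.44 CPM in VRC without overlap, while GLRA1, the main adult subunit, was at 2.02 ± 0.646 CPM in NTS and 2.49 ± 0.645 CPM in VRC (adjusted p = 0.403). Of 7 tested glycine and GABA-B receptor genes 4 rose and 0 fell.

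Glutamate receptors changed in both directions. Of 16 tested ionotropic subunits 7 rose and 3 fell. GRIA1, an AMPA receptor subunit, averaged 452 ± 118 CPM in NTS and 179 ± 60.8 CPM in VRC, and GRIA3, another AMPA subunit, 66.5 ± 20.7 CPM in NTS and 143 ± 26.2 CPM in VRC. Their log2 fold changes were 1.33 ± 0.25 (adjusted p = 0.00184) and −1.11 ± 0.19 (adjusted p = 0.00116). GRIN3B and GRIK3 also fell. Of 5 tested metabotropic receptors 1 rose and 1, GRM3, fell.

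Voltage-gated channels separated by type. Of 34 tested sodium, calcium, HCN and pacemaker channel genes 17 rose and 4 fell, with a median of 0.70. The low-threshold (T-type) calcium channels CACNA1G, CACNA1H and CACNA1I were all higher without overlap, CACNA1G at 15 ± 4.39 CPM in NTS and 3.19 ± 1.13 CPM in VRC (log2 fold change 2.22 ± 0.26, adjusted p = 0.000149). NALCN, the sodium leak channel, averaged 60.9 ± 20.2 CPM in NTS and 26.8 ± 5.17 CPM in VRC. Those that fell included SCN4B, SCN1A and HCN2. SCN4B, an auxiliary sodium channel subunit, ran from 0.694 to 7.69 CPM in NTS (median 1.59), against 9.03 to 20.6 CPM in VRC (median 13.7), and SCN1A averaged 45.7 ± 14.6 CPM in NTS and 94.8 ± 21.0 CPM in VRC.

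Of 62 tested potassium channel genes 18 rose and 11 fell, with a median of 0.33. The share that fell was near the 13.6% over all genes tested. KCNF1, a modifying subunit of voltage-gated channels, averaged 20.4 ± 6.32 CPM in NTS and 4.65 ± 1.06 CPM in VRC (log2 fold change 2.13 ± 0.23, adjusted p = 9.04e-05), and KCNK2, the two-pore channel TREK-1, 9.41 ± 2.09 CPM in NTS and 3.06 ± 0.553 CPM in VRC. Those that fell included KCNC1, a Kv3 channel of fast-firing neurons, and KCNA1, a Kv1 channel of axons. KCNS3 averaged 10.4 ± 2.78 CPM in NTS and 25.0 ± 3.13 CPM in VRC without overlap. KCNC1, KCNA1, SCN1A, SCN4B and HCN2 each had their highest NTS value in the myelin-rich replicate 1, and the part of myelinated axons in these differences was not tested.

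Genes tied to chemoreception changed in both directions. Of 27 tested genes of proton and CO2 sensing 7 rose and 10 fell, with a median of −0.43. GPR4 and KCNK5, the proton receptor and the TASK-2 channel of RTN chemosensory neurons, were lower, GPR4 at 7.17 ± 1.52 CPM in NTS and 10.4 ± 2.01 CPM in VRC (adjusted p = 0.0385) and KCNK5 at 0.821 ± 0.417 CPM in NTS and 2.57 ± 1.23 CPM in VRC (adjusted p = 0.0127). The carbonic anhydrases CA4 and CA14 fell without overlap, by 1.99 ± 0.28 and 1.63 ± 0.22 on the log2 scale, and CA2, which oligodendrocytes express, fell with overlap. SLC4A10, a neuronal sodium-bicarbonate transporter, averaged 73.8 ± 23.1 CPM in NTS and 23.9 ± 7.48 CPM in VRC. GJB6 (connexin 30) and KCNJ10, an astrocyte potassium channel, were lower, at 66.8 ± 27.7 and 106 ± 15.7 CPM in NTS, against 137 ± 42.8 and 173 ± 39.5 CPM in VRC. On the list of preBötzinger and RTN markers 6 of 13 tested genes rose in NTS, among them SST, ADCYAP1, SSTR2, NPY2R and CDH9, and 3 fell, GPR4, KCNK5 and ROBO3. Among preBötzinger markers SST was called higher in NTS, OPRM1 was not called and DBX1, without a count, could not be tested.

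Myelin genes were lower and astrocyte genes mostly higher or not called in NTS. All 12 measured myelin genes fell in NTS, with a median of −1.40, and 9 did not overlap. MAG fell by 1.64 ± 0.26 (adjusted p = 0.000648) and CNP by 1.39 ± 0.24 (adjusted p = 0.00113). Of 10 tested precursor genes 2 rose and 2 fell, near the shares over all genes tested. Those that fell were BCAS1 and ENPP6, which mark newly myelinating cells. KLK6, a protease of oligodendrocytes, ran from 105 to 893 CPM in NTS (median 177), against 1170 to 1780 CPM in VRC (median 1420).

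Of 16 tested astrocyte genes 7 rose and 2 fell, with a median of 0.46. GFAP, the astrocyte filament, ran from 9690 to 21400 CPM in NTS (median 16300), against 3770 to 10000 CPM in VRC (median 6870), a rise of 1.17 ± 0.25 (adjusted p = 0.00374), and SLC1A3 and ALDH1L1 rose by 0.91 ± 0.24 and 0.83 ± 0.19. The list summed to 18900 to 31000 CPM in NTS, against 12300 to 20700 CPM in VRC. GJB6 and ALDOC were the 2 that fell. Endothelial genes were lower in 6 of 14 tested and higher in 0, with a sum of 849 to 1130 CPM in NTS, against 1180 to 1790 CPM in VRC. With the replicate number as a block 10 of them were called lower. KDR, the VEGF receptor, averaged 81.3 ± 27.9 CPM in NTS and 149 ± 10.5 CPM in VRC, and MFSD2A, the lipid carrier of the blood-brain barrier, 49.7 ± 13.7 CPM in NTS and 119 ± 30.2 CPM in VRC. Of 11 tested pericyte and smooth muscle genes 1 rose and 3 fell, where 14.1% of all genes tested rose and 13.6% fell. MYH11 led those that fell, at −1.09 ± 0.16.

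Of 14 tested microglial genes 2 rose (P2RY12 and C1QC) and 0 fell. Of all genes tested 14.1% rose and 13.6% fell, so the microglial rise was near that share. The microglial genes summed to 585 to 1530 CPM in NTS, against 475 to 1170 CPM in VRC. Of 8 tested leukocyte and red cell genes 3 rose and 0 fell, with sums of 36.1 to 72.1 CPM in NTS, against 23 to 33.6 CPM in VRC. Of 17 antigen presentation and interferon genes 3 rose and 1 fell, also near the shares over all genes tested.

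Markers of ependyma and choroid plexus varied widely among the NTS libraries. FOXJ1, the master gene of motile cilia and ependyma, had 0.669, 0.831, 2.03, 3.12, 40.6 and 4.21 CPM in NTS replicates 1 to 6, against 0.164 to 0.687 CPM in VRC. TTR (transthyretin), made by the choroid plexus, had 1.61, 0.864, 3.13, 1.35, 297 and 20 CPM in NTS replicates 1 to 6, against 0.634 to 3.31 CPM in VRC. FOXJ1 was above the VRC range in NTS replicates 2 to 6 and TTR in replicates 5 and 6. NTS replicate 5 held the highest FOXJ1, TTR and CHAT and the lowest GCG. Of 12 tested ependymal genes 6 rose and 0 fell, with sums of 160 to 457 CPM in NTS, against 149 to 237 CPM in VRC. Of 5 tested choroid plexus genes TTR and PRLR rose and ENPP2, which oligodendrocytes also express, fell, and the list summed to 354 to 731 CPM in NTS, against 860 to 1090 CPM in VRC.

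Of 8 tested genes of the area postrema and its neighbours 3 rose (TH, CALCR and GLP1R) and 1 fell (RAMP3), with sums of 351 to 646 CPM in NTS, against 305 to 475 CPM in VRC. GFRAL, the GDF15 receptor that is found in area postrema and nearby NTS neurons in rodents, ran from 0 to 7.88 CPM in NTS (median 4.64), against 0 to 0.288 CPM in VRC (median 0). It stood at 0 in NTS replicate 1 and failed the filter with that library included, and without it GFRAL was called higher (adjusted p = 6.95e-06). Near 0 in VRC, GFRAL could pass the filter only through NTS and so enter only as higher. Without that library 6 genes of the list rose, GFRAL among them, and 1 fell of 9 tested. Of 13 tested meningeal and perivascular fibroblast genes 5 rose and 2 fell, with sums of 253 to 549 CPM in NTS, against 146 to 232 CPM in VRC. COL1A2, a fibrillar collagen, averaged 85.2 ± 91.4 CPM in NTS and 17.4 ± 11.7 CPM in VRC. Of 8 tested Schwann cell and nerve root genes 2 rose, NCMAP and SCN7A, and 4 fell, with sums of 110 to 248 CPM in NTS, against 253 to 358 CPM in VRC. The part of ependymal, area postrema, meningeal or nerve root tissue in the differences above was not tested.

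**Figure D4:**
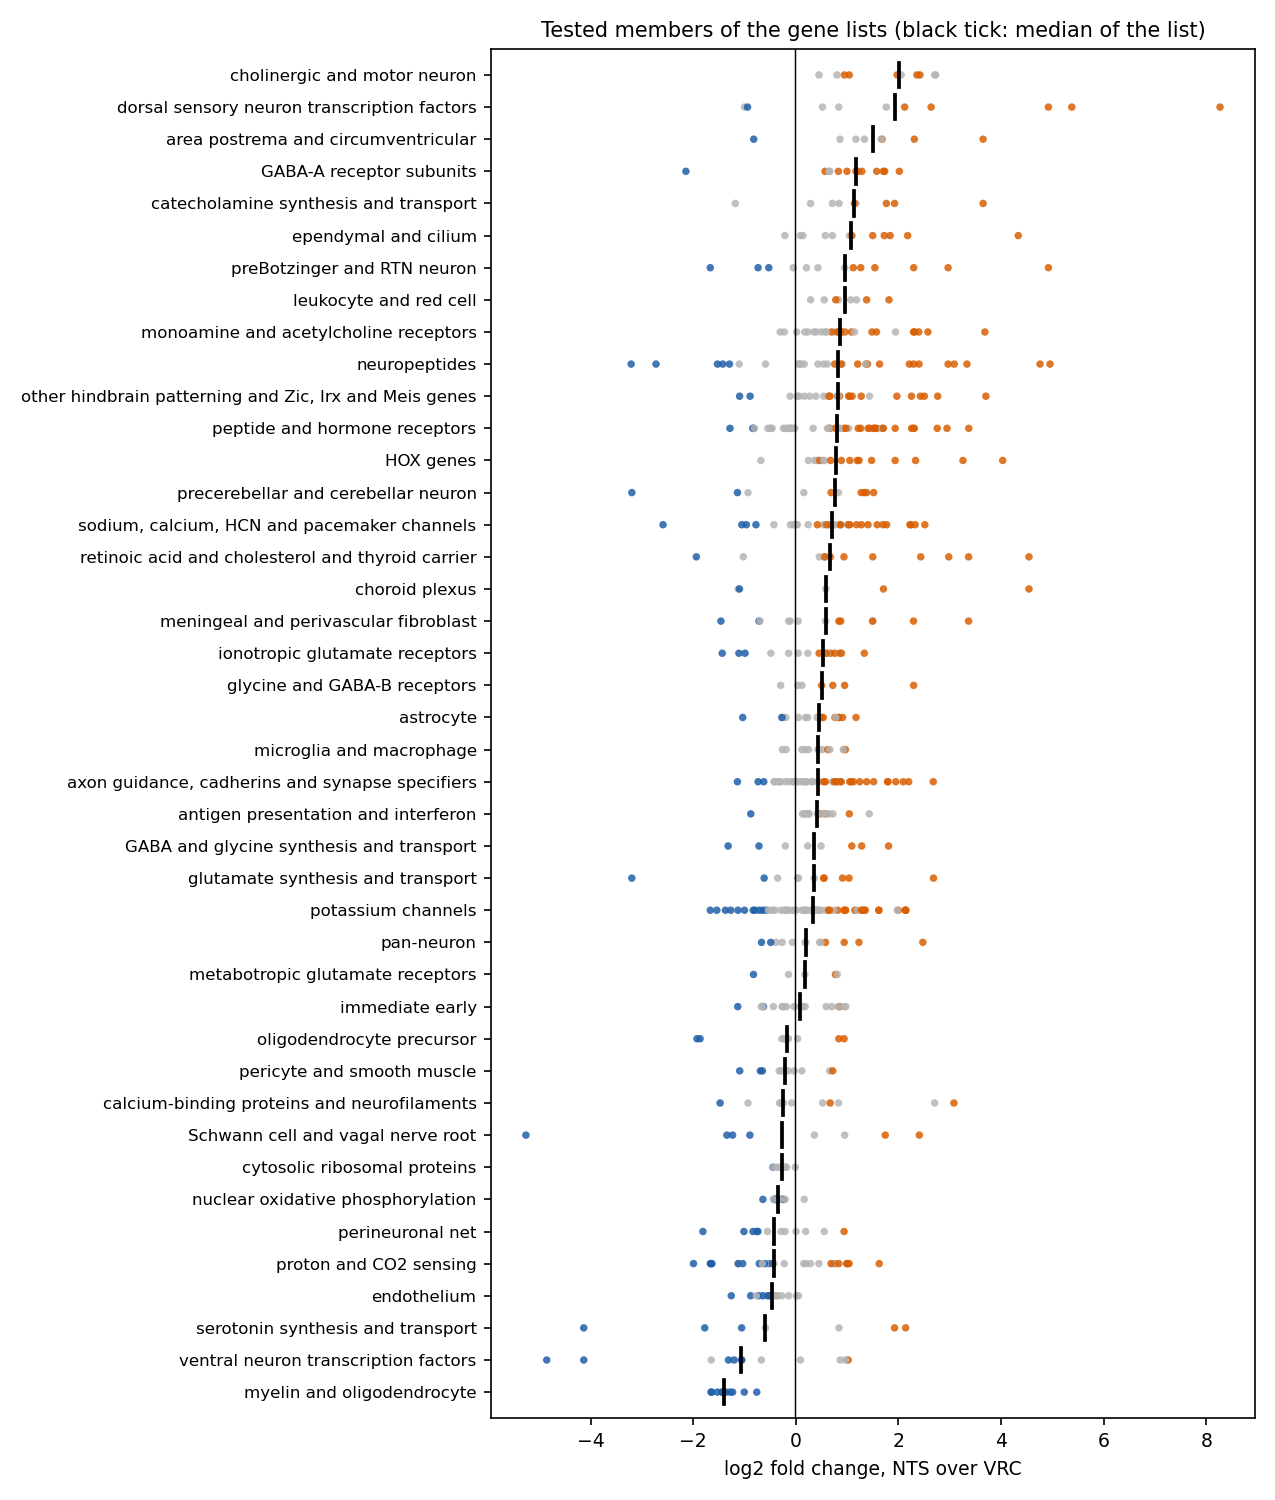
Log2 fold change of NTS over VRC (horizontal axis) for every tested member of the 42 gene lists (rows), with called members in orange (higher in NTS) or blue (lower) and others in grey; the black tick is the median of the list, and the vertical line is the median of all genes tested, −0.02. Myelin genes lie left of 0 in full, and neuropeptides, dorsal transcription factors and GABA-A subunits lie mostly right of it.

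Genes outside the lists were taken by the size of their change or by their p. CCDC3, a secreted protein of vessels and fat, ran from 24.3 to 187 CPM in NTS (median 124), against 2.06 to 5.07 CPM in VRC (median 3.52), a rise of 4.97 ± 0.47 (adjusted p = 4.89e-05). IGFBPL1 and BSPH1 rose by 4.85 ± 0.64 and 4.72 ± 0.61. COCH, known for its role in the inner ear, averaged 42.4 ± 18 CPM in NTS and 3.0 ± 1.95 CPM in VRC. TRPM1, the cation channel of retinal bipolar cells, ran from 28.5 to 89.5 CPM in NTS (median 76.1), against 3.74 to 9.08 CPM in VRC (median 6.51), and shared the smallest adjusted p among genes with a symbol that rose with CPNE5 (1.3e-05 for each). FREM1, an extracellular matrix gene at 0.615 to 1.43 CPM in NTS, had no count in VRC, which makes it at least 35.5-fold higher in NTS.

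On the lower side PMP2, a lipid-binding myelin protein best known from Schwann cells, changed most. It ran from 0.767 to 5.95 CPM in NTS (median 1.19), against 50.8 to 127 CPM in VRC (median 61.4), a log2 fold change of −5.26 ± 0.48 (adjusted p = 4.31e-05). Its highest NTS value came from replicate 1. MGAM, an intestinal-type glucosidase, averaged 0.64 ± 0.486 CPM in NTS and 19.0 ± 13 CPM in VRC. GPD1, glycerol-3-phosphate dehydrogenase, had the smallest p of all genes with a symbol: 15.7 to 21.4 CPM in NTS (median 18.7), against 52.6 to 64.3 CPM in VRC (median 56.8), with a log2 fold change of −1.65 ± 0.10 (adjusted p = 2.06e-06). Replicate 1, at 20.3 CPM, did not stand apart in GPD1. HSPA2, a heat shock protein, averaged 72.5 ± 39.4 CPM in NTS and 449 ± 106 CPM in VRC, and CYP51A1, an enzyme of cholesterol synthesis, 167 ± 29.6 CPM in NTS and 344 ± 24.2 CPM in VRC.

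CRB2, an apical polarity gene, had 137 counts over the 6 NTS libraries and 2 over the 6 VRC libraries, a ratio of 56.5 after scaling by library size, with a counting interval of 15.3 to 471. The 4 genes without a symbol that the rule allows are given by their identifiers. ENSCHIG00000014733 on chromosome 1 averaged 26.6 ± 11.3 CPM in NTS and 1.06 ± 0.798 CPM in VRC, and ENSCHIG00000021176 on chromosome 15 ran from 29.4 to 120 CPM in NTS, against 7.56 to 18 CPM in VRC. ENSCHIG00000015667 on chromosome 23 averaged 2.02 ± 2.11 CPM in NTS and 20.2 ± 6.18 CPM in VRC, and ENSCHIG00000026059 on chromosome 29 averaged 4.6 ± 2.02 CPM in NTS and 19.8 ± 7.58 CPM in VRC. None of the 4 overlapped between the regions.

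Of 13 tested genes of retinoic acid, cholesterol and thyroid carriage 8 rose and 1 fell, with a median of 0.67. ALDH1A1, a retinoic acid synthesis enzyme, averaged 105 ± 33.1 CPM in NTS and 37.3 ± 10.6 CPM in VRC, CRABP1, a retinoic acid binding protein, 154 ± 73 CPM in NTS and 28.6 ± 8.29 CPM in VRC, and STRA6, the retinol receptor, 3.91 ± 2.77 CPM in NTS and 0.485 ± 0.316 CPM in VRC. CYP26B1, which degrades retinoic acid, was the 1 that fell, at 1.42 ± 0.647 CPM in NTS and 5.55 ± 1.0 CPM in VRC (log2 fold change −1.94 ± 0.28, adjusted p = 0.000356) without overlap. ALDH1A2, STRA6 and CRABP1 were lowest among NTS libraries in replicate 1.

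Of 46 tested axon guidance, cadherin and synapse genes 19 rose and 3 fell, with a median of 0.44. EFNB3, an ephrin, and PLXNC1, a semaphorin receptor, rose by 2.09 ± 0.25 (adjusted p = 0.000149) and 2.20 ± 0.27 (adjusted p = 0.000158), and CDH4 averaged 42.2 ± 14.2 CPM in NTS and 12.2 ± 2.49 CPM in VRC. The cerebellins split, CBLN1 and CBLN2 being higher and CBLN4 lower. Of 12 tested perineuronal net genes 1 rose and 5 fell, among them ACAN, the core proteoglycan, at 2.16 ± 0.475 CPM in NTS and 4.33 ± 1.14 CPM in VRC, and HAPLN2, a link protein of the nodes of Ranvier, at 241 ± 175 CPM in NTS and 843 ± 86.7 CPM in VRC. Of 13 tested calcium-binding and neurofilament genes 2 rose and 1 fell. HPCAL4, a neuronal calcium sensor, averaged 22.2 ± 7.49 CPM in NTS and 2.61 ± 1.14 CPM in VRC, and SPP1 (osteopontin), which marks large brainstem neurons, 491 ± 316 CPM in NTS and 1360 ± 93.6 CPM in VRC. Of 10 precerebellar and cerebellar genes 5 rose and 2 fell.

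Of 13 tested pan-neuronal genes 4 rose and 2 fell, with a median of 0.20. NRGN, a postsynaptic calmodulin-binding protein, ran from 10.2 to 24.9 CPM in NTS (median 17.7), against 2.22 to 4.6 CPM in VRC (median 2.83), and GAP43, a protein of growing and plastic axons, averaged 1000 ± 233 CPM in NTS and 427 ± 82.2 CPM in VRC. SNAP25, a synaptic fusion protein, was lower at 1610 ± 135 CPM in NTS and 2560 ± 528 CPM in VRC, without overlap. Of 16 nuclear genes of oxidative phosphorylation 8 fell and 0 rose, with a median of −0.34. Without NTS replicate 1, or with the replicate number as a block, 15 were called lower. Of 12 measured cytosolic ribosomal protein genes 1 fell and 0 rose. Called lower were 9 without NTS replicate 1 and 10 with the block. Of 21 immediate early genes ARC rose and JUN and KLF4 fell, shares no larger than those over all genes tested.

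The contrast was looked up in the hypercapnic goats, whose libraries share none with room air. In mild hypercapnia 3703 of 15176 genes tested were higher in NTS (24.4%) and 3241 lower (21.4%), and in moderate hypercapnia 2674 of 15124 were higher (17.7%) and 2751 lower (18.2%). Of the 839 genes at least 2-fold higher in room air, 764 were called higher in mild and 741 in moderate hypercapnia, and 704 (83.9%) in both. Of the 470 at least 2-fold lower, 444 were called lower in mild and 437 in moderate hypercapnia, and 428 (91.1%) in both. No gene of the 4200 called in room air was called in the opposite direction in either condition. SST stood at 3.43 in mild and 3.13 in moderate hypercapnia on the log2 scale, TH at 3.97 and 3.75, and PMP2 at −5.56 and −5.48.

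**Figure D5:**
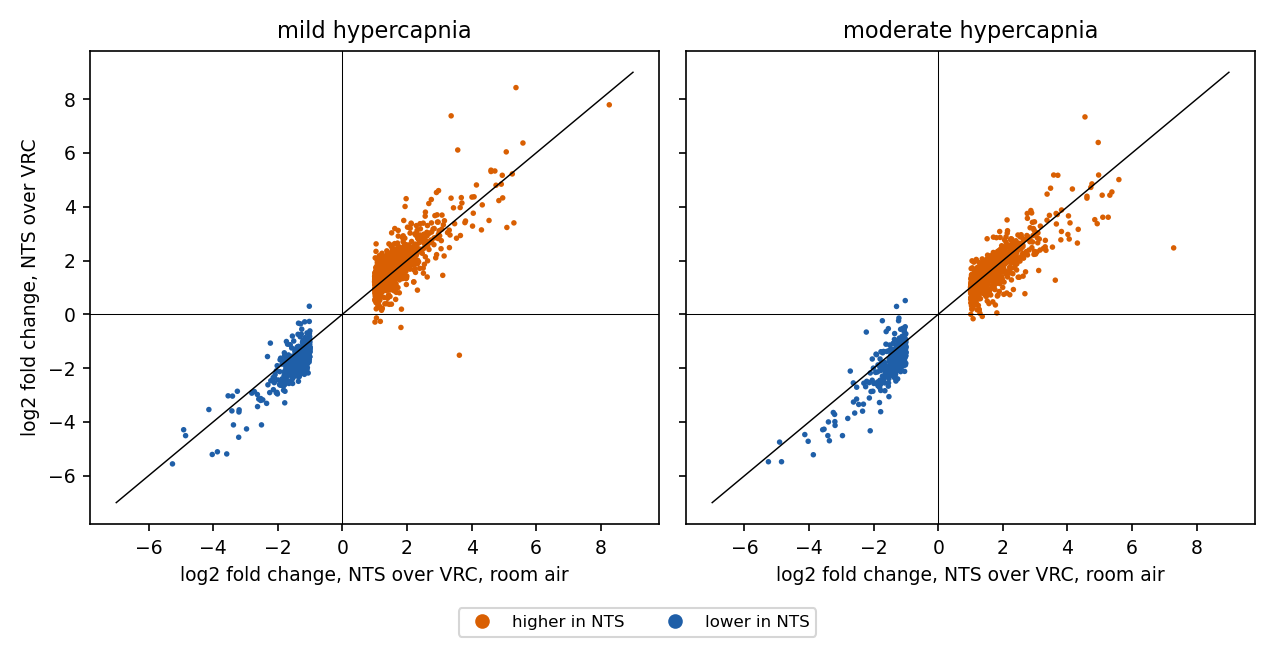
Log2 fold change of NTS over VRC in mild (left) and moderate hypercapnia (right) on the vertical axes against that in room air on the horizontal axes, for the genes called at least 2-fold in room air (839 higher in orange, 470 lower in blue) that were also tested there; the line marks equal values. Most points lie in the upper right and lower left quadrants, and none of the few outside them was called in the opposite direction.

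A change of the NTS-VRC difference with CO2 was tested in 1 edgeR fit of the 36 NTS and VRC libraries. No gene was called for mild against room air or for moderate against room air. An unadjusted p under 0.05 was found for 628 and 393 of 15860 genes, both less than a share of 0.05 of the genes tested. DESeq2, run without the edgeR filter on low counts, called 1 gene in each, SPAG6, a cilium gene. Its log2 differences were extreme, −16.6 ± 3.26 for mild and −19.6 ± 3.16 for moderate hypercapnia. Without that filter edgeR called 0 in each, and limma with quality weights called 0. HOXA4, which missed the threshold in room air, was called in mild hypercapnia at 0.55 (adjusted p = 0.0109) and not in moderate at 0.27 (adjusted p = 0.276), and the tests of the difference called neither.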

How the data were processed

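The authors deposited 1 table with gene counts and RPKM values of all 72 libraries. The deposited counts are whole-number reads per gene, and the authors' RPKM values are scaled by library total and gene length. The table's gene lengths and annotation columns, deposited by the authors, served as identifiers and hold no other measurement. Per the labels' protocols, total RNA was isolated and made into libraries with a low-input SMARTer kit. Of the steps before deposit, the submitters' processing notes list featureCounts, STAR, edgeR, Trimmomatic and FastQC, without versions or order. The genome build, the annotation and the strand setting were not stated in those sources. Overlapping and antisense genes and near-identical copies therefore cannot be told apart by counting.

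The 12 room air libraries of NTS and VRC were fitted alone in edgeR 4.0.16 (R 4.3.3) with filterByExpr at a minimum count of 10, TMM factors, the quasi-likelihood F-test and Benjamini-Hochberg adjustment at 0.05 over all genes tested. The same fit was run within mild and within moderate hypercapnia, and the difference between conditions was tested as an interaction over 36 libraries. CPM values use TMM factors over all 72 libraries. Counts differed between replicates beyond sampling noise in all 30 replicate pairs, so each library counts as 1 sample. The fitting code was tested on simulated data. Same-numbered NTS and VRC libraries deviated together, with a median r of 0.398 in room air, 0.318 in mild and 0.227 in moderate hypercapnia. In mild hypercapnia r was 0.153 to 0.442 over 6 of 6 pairs. In room air and in mild hypercapnia 10 of 12 libraries correlated best with their own number. The numbers may thus pair the libraries, from the data and not from the labels. The counts above come from unpaired fits, with the replicate block as an alternative. Totals of 14.65 to 28.12 M counts set the counting error, and intervals and floors cover that error only.

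The 42 gene lists and the genes named were chosen with earlier results of these data known, so no list has a test. By the rule for single genes, those with a mean of at least 5 CPM, a call and no overlap were ranked, and the 12 of largest change and 8 of smallest p in each direction were eligible, with up to 5 called members per list and direction and the first 4 of each list. ADCYAP1R1, CCK, CDH9, CNP, CRB2, FREM1, GABRG1, HOXD1, KCNC1, KCNJ10, LMX1B, NALCN, PBX3, SCG2, SLC6A2, TAC1 and the neurotensin gene were chosen outside it, after their values were seen. Alternatives were DESeq2 1.42.0, limma 3.58.1 with quality weights, RLE factors, library totals, no filter, a replicate block, a myelin covariate, a test against a 1.5-fold change, joint fits of 24 or 36 libraries, and leaving out each library. Sequences and genome coordinates were not used here.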

Additional observations from a re-analysis of the deposited data

Results flagged for a closer look

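In 49 of the 346 sets of 6 libraries examined, 1 library lay farther from the other 5 than Dixon's 95% limit allows. The limit's rate of 1 in 20 holds for independent sets of normal values. These sets share the same 12 libraries, and some, such as CRB2 in VRC, hold 0 in all libraries but 1. The 49 are therefore not read against that rate. NTS replicate 1 accounted for 20 high and 6 low values, and NTS replicate 5 for 8 high values.

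NTS replicate 1 was the high library for myelin and related genes: CNP at 2870 CPM, MAG at 1960, BCAS1 at 1790, KLK6 at 893, HAPLN2 at 589, CA2 at 194, NKX6-2 at 80.2, NKX2-2 at 20.4 and PMP2 at 5.95 CPM. It was also the high library for SPP1 at 1120 CPM, RAMP3 at 297, HSPA2 at 150, KDR at 137, HCN2 at 71, KCNA1 at 8.09, SCN4B at 7.69, ENSCHIG00000015667 at 6.15 and IGF1 at 2.14 CPM. Its HOXB6 value was 43.6 CPM and its HOXA7 value 9.83 CPM. It was the low library for GRIA1 at 217 CPM, TRPM1 at 28.5, SLC4A10 at 28, NALCN at 22.1, HPCAL4 at 7.42 and SSTR1 at 4.48 CPM.

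NTS replicate 5 was the high library for TTR at 297 CPM, COL1A2 at 261, SLC5A7 at 152, CHAT at 52.7, FOXJ1 at 40.6, ALDH1A2 at 22.8, GRIN3B at 19.5 and PRLR at 2.66 CPM.

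Among VRC libraries, replicate 1 was high for RAMP3 at 427 CPM, PMP2 at 127, C1QC at 114 and GFRAL at 0.288 CPM. VRC replicate 2 was high for TAC1 at 49.1 and KCNF1 at 6.72 CPM, and replicate 3 for GLP1R at 1.91 and SLC6A2 at 1.31 CPM. VRC replicate 4 was high for MGAM at 44 and PAX3 at 0.634 CPM, replicate 5 for CRB2 at 0.11 CPM, and replicate 6 for NCMAP at 6.97, CHRNB4 at 5.55 and PNMT at 0.733 CPM. VRC replicate 6 was low for SPP1 at 1180 CPM.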

How the results depend on the processing

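Of 4200 calls in room air, DESeq2 kept 4192, RLE factors 4061 and limma with quality weights 4152, and no gene was called in the opposite direction under any alternative except 2 with the myelin covariate. Library totals gave 3279 higher and 1197 lower, and limma called 3264 lower. A test against a 1.5-fold change called 756 genes, 477 higher and 279 lower, of which 469 and 266 were at least 2-fold, a stricter test by construction. Leaving out each library gave 3151 to 6041 calls, with 1772 to 2934 higher and 1379 to 3107 lower, and 767 to 1074 higher and 371 to 693 lower at 2-fold or more. The top of these ranges came without NTS replicate 1, which kept 4153 of the 4200. In mild hypercapnia the range was 6246 to 7205 calls and in moderate 4547 to 5376. For the 169 genes tested and named above, leaving out 1 library lost the call of 1 to 15 and reversed none.

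The myelin covariate left 100 calls in room air, 50 higher and 50 lower, with 49 and 35 at 2-fold or more, 126 in mild (123 higher, 3 lower) and 21 in moderate hypercapnia (17 higher, 4 lower). It reversed 22 of the 169 named genes, which lost their calls, and lost the call of another 116 without reversing them. The reversed log2 fold changes, none called, were −5.38 for TTR, −2.75 for CHAT, −2.06 for FOXJ1, −1.68 for COL1A2, −1.64 for SLC5A7, −1.49 for RET, −0.447 for ADCYAP1, −0.375 for NPY2R, −0.343 for CHRNB4, −0.174 for DDC, −0.16 for NALCN, −0.123 for STRA6, −0.111 for GHSR, −0.00971 for CALCR and −0.0019 for SLC1A3. They were 0.598 for NKX6-2, 0.527 for HCN2, 0.317 for GRIK3, 0.233 for CBLN4, 0.226 for FOXP2, 0.0666 for RAMP3 and 0.06 for KCNC1. The score itself separates the regions, and the cause was not tested.

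With the replicate number as a block 5864 genes were called, 2776 higher and 3088 lower, and 4138 of the 4200 were kept. In room air same-numbered NTS and VRC libraries deviated together with r of 0.0938 to 0.511, over 0.1 in 5 of 6 pairs. Their median r of 0.398 was no lower than the 0.318 of mild hypercapnia. The main fits stayed unpaired in every condition because the labels name no shared animal. The block moved a count of calls by over 1.5 times in 16 of the 42 lists, to 10 lower in cytosolic ribosomal proteins, 15 in oxidative phosphorylation and 10 in endothelium. In mild hypercapnia, where r was over 0.1 in 6 of 6 pairs, the block called 7504 genes and kept 6756 of 6944. Of those 7504, 4049 were higher in NTS and 3455 lower. As a hint from the room air data, 10 of 12 libraries correlated best with their own number. The differences between conditions had 0 calls under the block and 1 with DESeq2 in each condition. In RPKM 103 of the 173 genes named were higher in NTS, against 102 in CPM. Of the 42 lists, 30 had a median above 0, and 20 did with the myelin covariate. PNMT failed the filter at 0.222 ± 0.253 CPM in NTS and 0.153 ± 0.288 CPM in VRC, and the part of depth in this was not tested.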
